A study of Mus musculus with 4 samples.

Results

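The 8 genes Thbs1, Ctgf, Cyr61, Tgfbi, Edn1, Ankrd1, Amotl2 and Lats2 are known to respond to the co-activator YAP or to transforming growth factor beta (TGF-beta), and several of them encode proteins that act in cell adhesion. They were chosen by symbol, and all 8 were found among the 31600 features of the deposited table, which lists Ctgf and Cyr61 under these older names (now Ccn2 and Ccn1). The RNA came from spermatogonial stem cells of the mouse, the cells from which sperm production is renewed throughout life. The control group held 2 libraries with the genotype entry WT, and the differentiation group held 2 libraries whose genotype entry reads Differentiation. The sources used here give neither the agent, duration and culture conditions of the differentiation group nor whether libraries of 1 group stem from separate cultures or animals. The p-values thus measure the spread between these libraries, which may be technical.

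Levels are given in FPKM, a fragment count per length of exon and per depth of the library, so they can be compared between genes. The FPKM steps correspond to 17772000 to 20650200 fragments per library. The germ cell markers Dazl and Ddx4 were at 242 to 246 and 67.3 to 69.7 FPKM in the control libraries and at 319 to 332 and 124 to 126 FPKM in the differentiation libraries, so RNA of germ cells was abundant in both groups. A change is called where the limma p-value, adjusted over the 23138 features whose mean reached 0.5 FPKM, is under 0.05. Of these features 27.0% were called lower in differentiation and 29.6% higher, and among the protein-coding features tested 34.0% were called lower.

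YAP and its relative TAZ are co-activators that bind no DNA themselves and reach their target genes through the TEAD transcription factors. The Hippo kinases MST and LATS phosphorylate YAP and TAZ and keep them out of the nucleus, whereas a stiff matrix, cell spreading and actin tension favour their entry. TGF-beta binds a pair of receptor kinases that phosphorylate SMAD2 and SMAD3, and these enter the nucleus with SMAD4 and act on many genes of the extracellular matrix. The pathways share targets, Ctgf and Thbs1 among them. In the testis, such genes are known from the somatic cells around the germ cells as well as from cultured cells that attach to a substrate.

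Promoter sequence is shown because TEAD factors, through which YAP reaches its targets, bind a short element. It reads GGAATG on one strand and appears as its reverse complement, CATTCC, on the other. RefSeq windows of the GRCm38.p6 build, from 250 bases before to 50 bases after a transcription start, were matched for 6 of the 8 genes, with 2 starts for Lats2. Thbs1 and Ctgf had no entry. The stretches below run 5′ to 3′ on the strand of the gene, and capitals mark this element in either orientation. The stretch of Cyr61 is chr3:145649986-145650235 on the minus strand and that of Edn1 is chr13:42301226-42301475 on the plus strand, each the 250 bases before the start. The others are 30 bases around the match: chr9:102717727-102717756 on the plus strand for Amotl2, chr14:57746102-57746131 on the minus strand for Lats2, and chr19:36120037-36120066 and chr19:36119950-36119979 on the minus strand for Ankrd1.
Cyr61: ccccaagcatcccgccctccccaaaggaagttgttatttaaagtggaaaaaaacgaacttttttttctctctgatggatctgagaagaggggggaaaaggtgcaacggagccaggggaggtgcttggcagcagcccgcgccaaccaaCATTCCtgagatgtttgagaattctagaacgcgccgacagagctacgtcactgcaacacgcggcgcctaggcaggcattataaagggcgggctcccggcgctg
Edn1: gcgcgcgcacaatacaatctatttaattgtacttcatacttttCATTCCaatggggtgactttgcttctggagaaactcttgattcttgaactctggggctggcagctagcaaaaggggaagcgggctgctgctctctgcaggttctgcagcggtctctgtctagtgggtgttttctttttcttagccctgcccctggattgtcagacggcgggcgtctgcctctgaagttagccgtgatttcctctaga
Amotl2: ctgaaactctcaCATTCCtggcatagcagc
Lats2: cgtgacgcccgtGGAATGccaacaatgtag
Ankrd1, distal: gtcactgccaaaGGAATGaccctctcacat
Ankrd1, proximal: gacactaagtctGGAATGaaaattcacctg

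The TEAD element was present in 5 of the 6 genes with a window and in 5 of their 7 windows. Among all 32851 mouse windows of the same length 14.7% hold it. It began 103 bases before the start in Cyr61, 65 bases before it in Amotl2, 207 bases before it in Edn1, and 210 and 123 bases before it in Ankrd1. In Lats2 it began 4 bases after the start base of the first window, and the second window held none. Tgfbi had no match in its window. The matches of Amotl2, Lats2 and Ankrd1 lie within exons that GENCODE M21 annotates for these genes, those of Cyr61 and Edn1 outside them. The SMAD element, CAGACA when read on one strand and TGTCTG when read on the other, was found in 1 of the 7 windows, that of Ankrd1 at 137 bases before the start, and in 21.0% of all windows. The AP-1 element TGANTCA, which reads alike on both strands, and the CArG box, the binding element of serum response factor, were found in 0 of the 7 windows, against 7.81% and 1.63% of all windows. A match is a stretch of letters and not a measured binding site.

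**Figure D1:**
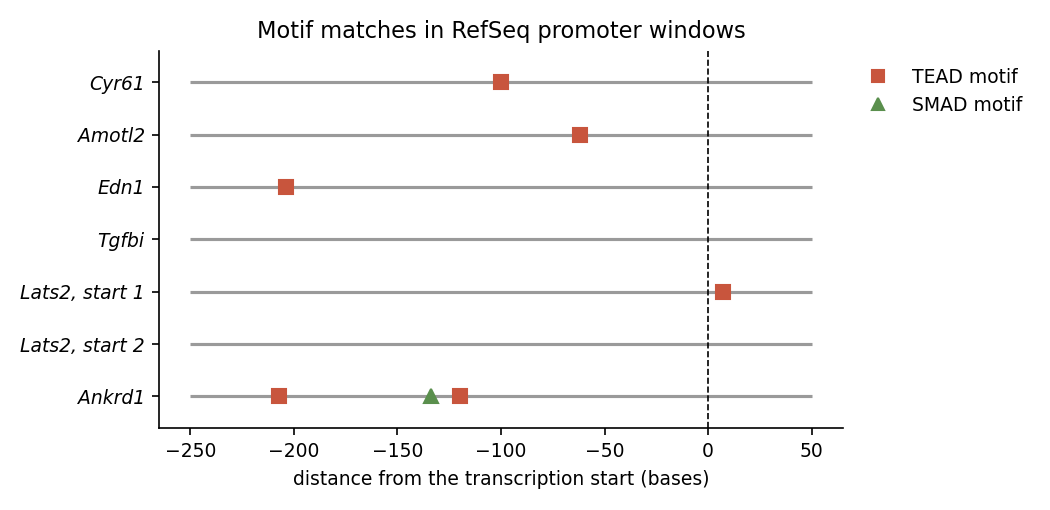
Positions of the TEAD and SMAD elements (symbols, at the middle of each match) in 7 RefSeq promoter windows, with distance from the transcription start in bases on the horizontal axis and the start as a dashed line. The TEAD element appears in the windows of Cyr61, Amotl2, Edn1, Ankrd1 and the first Lats2 start, and Tgfbi has neither element.

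All 8 genes fell in differentiation, where 27.0% of all features tested were called lower, and 0 rose (limma; 0 at an unadjusted p under 0.05 and 0 with limma-voom on recovered fragments, where all 8 fell beside 31.4% of features). All but Ankrd1 and Lats2 fell at least 2-fold on the log2(FPKM + 1) scale, 6 of 8 genes, as did 4.40% of the features tested. All 8 are also lower at an adjusted p under 0.05 in the authors' deposited table, beside 20.3% of its features. The levels of the differentiation libraries lay below those of both control libraries for all 8 genes, as they did for 39.1% of the features tested, while 40.9% lay above in differentiation without overlap. The median log2 fold change of the 8 genes was -1.48 on the log2(FPKM + 1) scale, and that of all features tested was 0.01. Summed over the 8 genes, FPKM was 345 and 347 in control against 128 and 122 in differentiation. The members span a wide range of levels, and Thbs1, Cyr61 and Ctgf made up 86.7% to 86.9% of this sum in control and 89.0% to 89.3% in differentiation.

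In control the order of the levels from high to low was Thbs1, Cyr61, Ctgf, Amotl2, Edn1, Lats2, Tgfbi and Ankrd1, and the libraries of neighbours in that order did not overlap. Thbs1, Cyr61 and Ctgf lay above 99.6%, 99.4% and 98.5% of the protein-coding genes in the table by mean control FPKM. In differentiation these 3 genes kept their order and still lay above 97.2%, 96.3% and 94.2% of protein-coding genes. Edn1 came below Lats2 there, and the libraries overlapped between Amotl2 and Lats2 and between Tgfbi and Ankrd1. Ankrd1 was the lowest of the 8 in both groups, above 43.4% of protein-coding genes in control and 33.3% in differentiation.

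**Figure D2:**
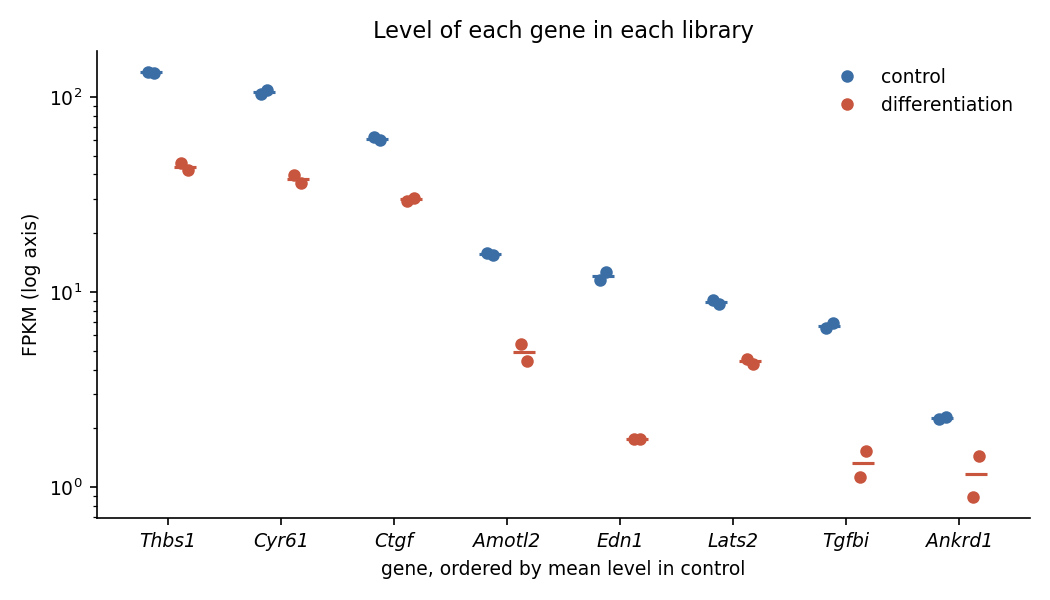
FPKM of the 8 genes (log axis) in each library, with control points in blue and differentiation points in red and short lines at the group means. The points of the differentiation group lie below those of control for each gene, with the widest gap for Edn1 (11.6 and 12.6 against 1.76 and 1.77 FPKM).

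The secreted matrix proteins come first. Thbs1 (ENSMUSG00000040152, chromosome 2, 118111876 to 118127133, plus strand) encodes thrombospondin 1, an adhesive glycoprotein that also releases TGF-beta from its latent complex. Its level was 134 and 133 FPKM in control and 45.6 and 42.2 FPKM in differentiation, so neither differentiation library came near a control library. It retained 32.9% of its control mean (log2 fold change -1.58, SE 0.05; limma adjusted p = 1.52e-04). This was the best sampled of the 8 genes, its control values resting on 15857 and 16630 fragments and its differentiation values on 4917 and 5213.

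Cyr61 (ENSMUSG00000028195, chromosome 3, 145646976 to 145649981, minus strand) and Ctgf (ENSMUSG00000019997, chromosome 10, 24595442 to 24598683, plus strand) encode matricellular CCN proteins that bind integrins, and are the most widely used readouts of YAP activity. Cyr61 was at 104 and 108 FPKM in control and at 39.7 and 36.2 FPKM in differentiation, and Ctgf at 62.0 and 60.1 against 29.3 and 30.4 FPKM. Both control libraries lay above both differentiation libraries for either gene. Cyr61 retained 35.9% of its control mean (log2 fold change -1.45, SE 0.06; limma adjusted p = 2.31e-04). Ctgf retained 48.9% (log2 fold change -1.01, SE 0.03; limma adjusted p = 1.94e-04).

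Tgfbi (ENSMUSG00000035493, chromosome 13, 56609523 to 56639562, plus strand) encodes a TGF-beta induced matrix protein that binds collagen and integrins. It was at 6.51 and 6.91 FPKM in control and at 1.12 and 1.52 FPKM in differentiation, where its values rest on 75 and 117 fragments. The groups lay far apart, although the differentiation libraries differed from each other more than those of Thbs1 or Cyr61 in relative terms. The differentiation mean was 19.7% of the control mean. On the log2(FPKM + 1) scale, which understates this fall, the change was -1.74 (SE 0.12; limma adjusted p = 8.26e-04).

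Edn1 (ENSMUSG00000021367, chromosome 13, 42301476 to 42307990, plus strand) encodes the precursor of endothelin 1, a secreted peptide that constricts vessels and acts on neighbouring cells through the endothelin receptors. It was at 11.6 and 12.6 FPKM in control (482 and 558 fragments) and at 1.76 and 1.77 FPKM in differentiation (67 and 77 fragments). The mean ratio of control to differentiation was 6.86, and over the 4 pairings of a control with a differentiation library it ran from 6.55 to 7.17. Both differentiation libraries were low, and nearly equal. On the log2(FPKM + 1) scale the change was -2.24 (SE 0.07; limma adjusted p = 1.74e-04), and 0.151% of the features tested had a more negative value.

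Ankrd1 (ENSMUSG00000024803, chromosome 19, 36111961 to 36120099, minus strand) encodes an ankyrin repeat protein of the nucleus and of muscle sarcomeres. It was at 2.24 and 2.28 FPKM in control (126 and 136 fragments) and at 0.893 and 1.45 FPKM in differentiation (46 and 85 fragments), so relative to its mean Ankrd1 had the widest spread of the 8 genes between differentiation libraries. The log2 fold change was -0.60 (SE 0.16; limma adjusted p = 0.0338). The call was lost without control replicate 1, control replicate 2 or differentiation replicate 1 (limma adjusted p = 0.110, 0.116 and 0.0738, with log2 fold changes of -0.61, -0.59 and -0.41), and it stood without differentiation replicate 2 (limma adjusted p = 0.0274). With a filter of at least 2 FPKM Ankrd1 was not tested.

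Amotl2 and Lats2 encode inhibitors of YAP that are themselves YAP targets, and so form a feedback on the pathway. Amotl2 (ENSMUSG00000032531, chromosome 9, 102716672 to 102733418, plus strand), a junctional protein of the angiomotin family that can hold YAP in the cytoplasm, was at 15.9 and 15.5 FPKM in control and at 5.44 and 4.44 FPKM in differentiation. It retained 31.4% of its control mean (log2 fold change -1.50, SE 0.10; limma adjusted p = 7.23e-04). Lats2 (ENSMUSG00000021959, chromosome 14, 57689662 to 57758388, minus strand), a kinase that phosphorylates YAP and TAZ, was at 9.05 and 8.69 against 4.54 and 4.29 FPKM. It retained 49.8% (log2 fold change -0.87, SE 0.06; limma adjusted p = 8.33e-04). Control and differentiation libraries did not overlap for either gene.

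The size of the change differed among the 8 genes. It was compared on the recovered fragments, where the pseudocount is small beside the fragment numbers and shrinks the low genes less. There limma-voom gave log2 fold changes of -2.80 for Edn1 (95% confidence interval -3.13 to -2.46) and -2.37 for Tgfbi (-2.68 to -2.05). Amotl2, Thbs1 and Cyr61 followed at -1.71 (-1.86 to -1.56), -1.64 (-1.69 to -1.58) and -1.51 (-1.61 to -1.41). The changes of Ctgf, Lats2 and Ankrd1 were -1.06 (-1.15 to -0.96), -1.03 (-1.17 to -0.90) and -0.99 (-1.42 to -0.56). The intervals of Edn1 and Tgfbi overlapped each other and no other, and the interval of Cyr61 did not overlap those of Ctgf and Lats2. The CCN genes Cyr61 and Ctgf thus changed by unequal amounts. The authors' deposited table gives log2 fold changes of -2.78 for Edn1, -2.34 for Tgfbi and -0.94 for Ankrd1, with an adjusted p of 0.0158 for Ankrd1, from the same libraries.

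**Figure D3:**
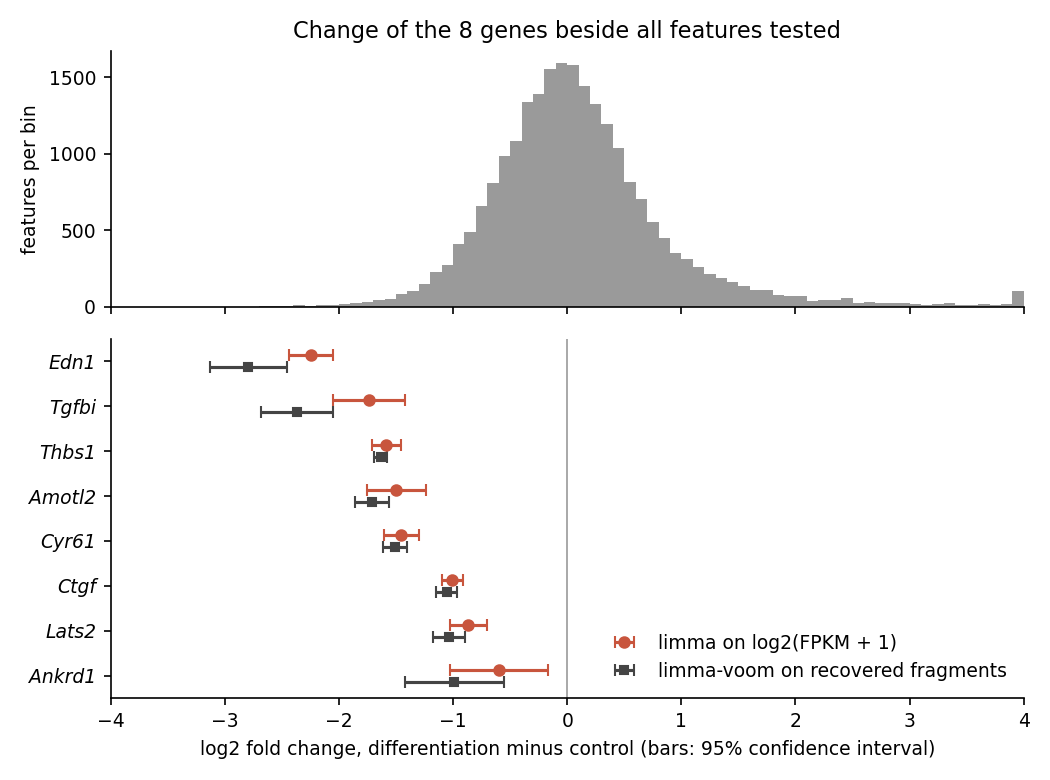
Log2 fold change of each of the 8 genes (lower panel, points with 95% confidence intervals, by limma on log2(FPKM + 1) in red and limma-voom on recovered fragments in grey) under the distribution for all 23138 features tested (upper panel, with values beyond 4 placed in the last bin at either end). The points run from -0.60 for Ankrd1 to -2.24 for Edn1 on the log2(FPKM + 1) scale, left of the centre of the distribution at 0.01.

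Annotated features on the opposite strand share exonic bases with 3 of the genes, and no source used here says whether reads were counted by strand. Gm29233, a long non-coding RNA within Thbs1, shares 208 of its 281 exonic bases with a Thbs1 exon, and it was at 251 and 234 FPKM in control and at 76.7 and 80.0 FPKM in differentiation. Its ratio of control to differentiation, 3.09, was close to the 3.04 of Thbs1. Gm15270 shares 665 of 2053 exonic bases with Ctgf and was at 13.4 and 13.7 against 7.26 and 6.79 FPKM. Gm47118 shares 35 of 400 with Edn1, otherwise lies in its introns and was at 9.89 and 6.54 against 0.985 and 0.982 FPKM. All 3 were called lower (limma adjusted p = 1.61e-04, 5.89e-04 and 1.78e-03), and without strand their reads and those of the 3 coding genes cannot be told apart where they overlap. On the strand of Lats2, GENCODE M21 also has the coding gene Gm49361, which shares 2955 of its 3287 exonic bases with Lats2 and was not analysed here. The small nucleolar RNA Gm26440 and the pseudogene Gm20430 lie within Lats2 on the opposite strand and share 0 exonic bases with it. Gm20430 was called lower and Gm26440 was not (limma adjusted p = 0.0156 and 0.225).

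Markers of other cell types moved in the same libraries. The 8 fibroblast markers, which include the collagen gene Col6a1 and the growth factor receptor gene Pdgfra, all fell, and their summed level went from 73.5 to 76.0 FPKM in control to 24.3 to 25.2 FPKM in differentiation, a median log2 fold change of -1.10. The 8 macrophage markers, with Lyz2 and Cd68 as the highest, all fell too, from 66.9 to 69.5 to 15.7 to 15.9 FPKM, with a median of -1.64. These lists thus fell as a whole, while the remaining somatic lists changed in part. Of 6 peritubular and smooth muscle markers 2 fell, Acta2 and Tagln, and 1 rose, Actg2 (0 without control replicate 1, control replicate 2 or differentiation replicate 2), with a summed level of 83.0 to 89.5 against 38.1 to 41.9 FPKM. Acta2 (58.0 and 53.7 against 23.8 and 21.1 FPKM) and Tagln (27.3 and 25.3 against 13.3 and 11.6 FPKM) carried the fall of this sum. The 3 smooth muscle markers that did not pass had log2 fold changes from -0.27 to 0.38. Of 6 endothelial markers tested, out of 9, 2 fell and 0 rose (limma, with 0 at an unadjusted p under 0.05 and 0 with limma-voom). The number that fell was 1 when any 1 library was left out, and the sum was 14.9 to 15.0 against 8.71 to 9.19 FPKM. The highest endothelial marker, the cadherin gene Cdh5, was at 8.15 and 8.17 against 2.96 and 3.20 FPKM, and so carried most of the fall of this sum. The 4 tested endothelial markers that did not pass had log2 fold changes from -0.23 to 0.19. Of 4 Leydig cell markers tested the steroidogenic genes Cyp11a1 and Hsd3b1 fell, with log2 fold changes of -2.35 and -2.69, and Star rose, and the list went from 37.1 to 38.2 to 20.9 to 21.3 FPKM. Of 6 Sertoli cell markers tested Cldn11 and Wt1 rose, Amh fell and 3 did not pass, Aard, Sox9 and Dhh, and the sum went from 89.8 to 92.4 to 99.9 to 110 FPKM. The shares called over all features were 27.0% lower and 29.6% higher, and the 2 of 6 that fell among the smooth muscle and the endothelial markers lie near the former.

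The 6 markers of undifferentiated spermatogonia all fell, from 121 to 124 FPKM in sum in control to 29.1 to 29.6 FPKM in differentiation, Zbtb16 from 25.4 in both control libraries to 3.78 and 3.92 FPKM. The 4 general germ cell markers all rose, from 397 to 400 to 679 to 680 FPKM in sum. No marker of the lists found in the table was at 0 FPKM in any library. In bulk RNA, fewer cells of a type and less RNA per cell cannot be told apart, and which cells of these libraries carried the RNA of the 8 genes was not tested. The part of the marker shifts in the fall of the 8 genes, and in the counts of the pathway lists that follow, was not tested either.

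**Figure D4:**
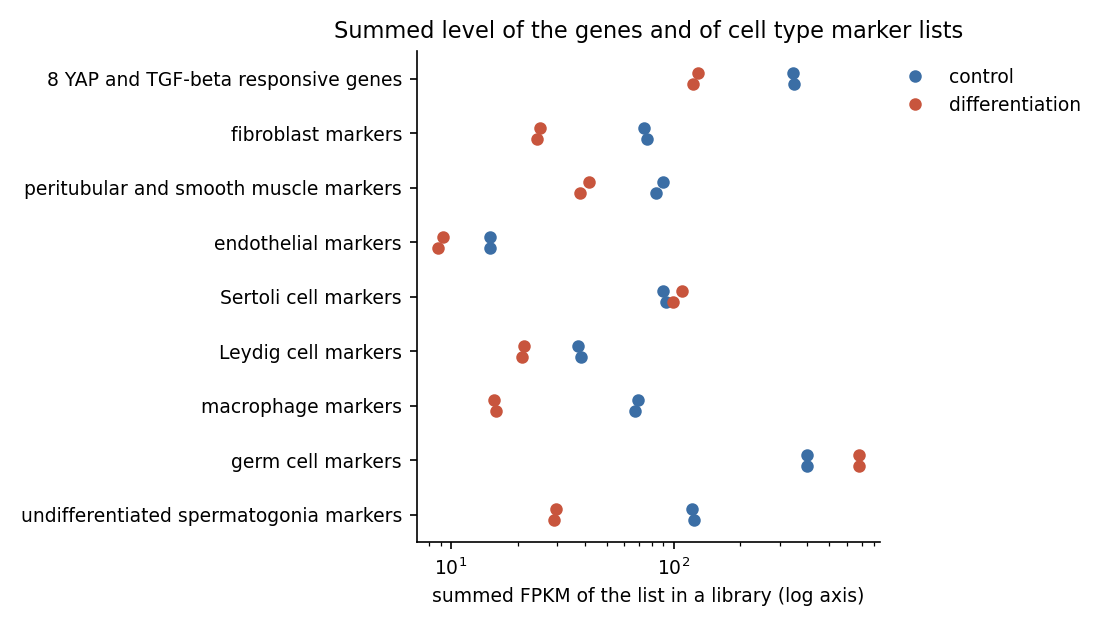
Summed FPKM (log axis) of the 8 genes and of 8 marker lists in each library, with control in blue and differentiation in red. The sum of the 8 genes (345 and 347 against 128 and 122 FPKM) and those of the fibroblast, macrophage and undifferentiated spermatogonia markers are lower in differentiation, and that of the germ cell markers is higher.

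YAP, TAZ, the TEAD factors and their VGLL co-factors fell in the same libraries. All 8 tested genes of the list of YAP, TAZ, TEAD and VGLL factors fell and 0 rose (limma; 0 at an unadjusted p under 0.05 and 0 with limma-voom), where 27.0% of all features were called lower, with a median log2 fold change of -0.78. Yap1 went from 15.3 and 15.8 FPKM to 9.37 in both differentiation libraries (log2 fold change -0.68, SE 0.04; limma adjusted p = 5.67e-04). Wwtr1, which encodes TAZ and was named after its values were seen, went from 13.1 and 14.2 to 6.32 and 6.57 FPKM (log2 fold change -0.97). Tead1, the TEAD gene with the highest level in control, went from 22.8 and 22.9 to 12.7 and 12.4 FPKM, and Tead2 from 13.7 and 13.0 to 4.22 and 4.25 FPKM, with log2 fold changes of -0.82 and -1.46. Vgll3, a TEAD co-factor, fell by 1.25 on the log2(FPKM + 1) scale. Without any 1 of the libraries 6 to 7 of the 8 were called. The 8 fibroblast markers, which also fell, had a median of -1.10, and their part in this result was not tested.

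The Hippo kinases and their regulators went both ways. Of 19 genes tested 8 fell, 4 rose and 7 did not pass, with a median log2 fold change of -0.02, beside 27.0% of all features called lower and 29.6% called higher. The 4 that rose were Sav1, Wwc2, Taok1 and Nf2, with log2 fold changes of 1.32, 0.89, 0.49 and 0.47 (limma adjusted p = 1.40e-04, 4.21e-04, 6.75e-04 and 9.16e-04). Sav1, the scaffold of the MST kinases, went from 13.2 and 12.7 to 33.4 and 34.1 FPKM. Among those that fell, Wwc1 went from 6.34 and 6.33 to 1.61 and 1.33 FPKM, and Amot from 4.23 and 4.19 to 0.884 and 0.824 FPKM, with log2 fold changes of -1.57 and -1.49.

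Lats1 and Amotl1, paralogs of the feedback genes Lats2 and Amotl2 and named after their values were seen, did not pass the test. Lats1 was at 18.4 and 19.4 FPKM in control and at 18.8 and 19.1 in differentiation, so the groups overlapped. Its log2 fold change was 0.01 (95% confidence interval -0.10 to 0.12; limma adjusted p = 0.878). After quantile normalization Lats1 was called lower (log2 fold change -0.14; limma adjusted p = 0.0415), and after median centring its log2 fold change was -0.067. The interval of Lats2, -1.03 to -0.71, did not overlap that of Lats1. In the angiomotin family, Amotl1 was at 5.68 and 5.91 against 6.63 and 5.95 FPKM (log2 fold change 0.10, 95% confidence interval -0.10 to 0.29; limma adjusted p = 0.298). Amotl2 and Amot both fell, and Amot fell more. On the recovered fragments limma-voom gave -1.71 (-1.86 to -1.56) for Amotl2 and -2.33 (-2.57 to -2.085) for Amot. After quantile normalization the log2 fold change of Amotl1 was -1.5e-03, with a limma adjusted p of 0.987.

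Most other genes known as YAP and TEAD targets also fell, but by less at the median than the 8 genes (-1.48). Of 17 listed genes 16 were tested, 15 fell and 0 rose (limma; 0 at an unadjusted p under 0.05 and 0 with limma-voom), with a median log2 fold change of -0.71, beside 27.0% of all features called lower. Crim1, a transmembrane protein that binds growth factors, went from 20.8 and 21.3 to 11.0 and 10.8 FPKM, and Arhgef17 from 16.2 and 15.4 to 7.75 and 7.26 FPKM, with log2 fold changes of -0.89 and -0.98. Asap1 fell by 0.68, and Tgfb2, a TGF-beta ligand, by 1.11 on the log2(FPKM + 1) scale. Tgfb2 went from 4.62 and 4.76 to 1.63 and 1.64 FPKM, with a limma-voom log2 fold change of -1.55. The gene that did not pass, Ccdc80, was at 3.55 and 3.25 against 3.33 and 2.89 FPKM. Of the 15 changes, none reached those of Edn1 or Tgfbi.

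**Figure D5:**
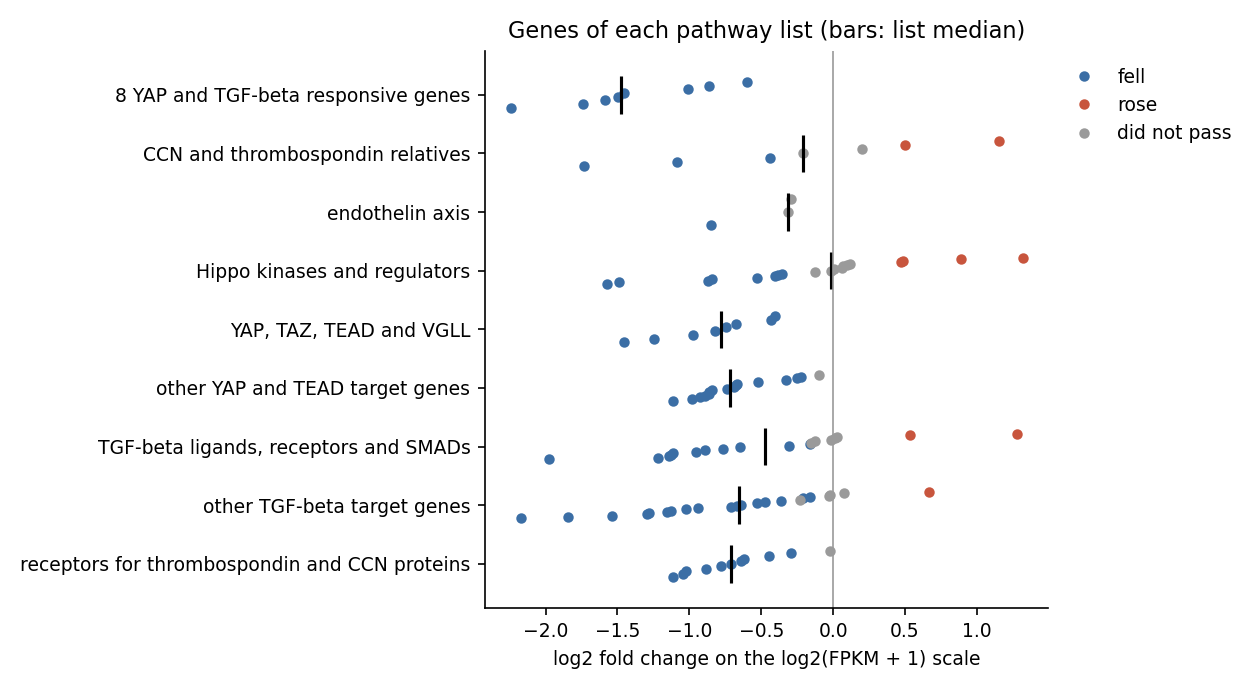
Log2 fold change on the log2(FPKM + 1) scale of each tested gene of the 8 genes and of 8 pathway lists (blue fell, red rose, grey did not pass the limma test), with a black bar at each list median. The points of the YAP and TEAD target list lie left of 0, while the list of Hippo kinases and regulators spreads on both sides around a median of -0.02.

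Genes of the TGF-beta pathway itself went both ways. Of 18 ligands, latency proteins, receptors and SMADs 11 fell, 2 rose and 5 did not pass (27.0% and 29.6% of all features were called lower and higher), with a median log2 fold change of -0.48. Ltbp4, which binds latent TGF-beta to the matrix, went from 21.1 and 22.9 to 5.11 and 4.59 FPKM, whereas its relative Ltbp3 rose from 8.41 and 7.88 to 21.1 and 21.3 FPKM. The other gene that rose was Tgfbr1, the type I receptor, from 29.5 and 28.7 to 43.5 and 41.7 FPKM (log2 fold change 0.53; limma adjusted p = 8.46e-04). Ski, a repressor of SMAD activity, fell by 1.22 on the log2(FPKM + 1) scale. The 5 that did not pass were Ltbp1, Bambi, Tgfb3, Smad2 and Smad4, with log2 fold changes from -0.15 to 0.02.

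Among 22 tested genes of 23 known to respond to TGF-beta, 17 fell, 1 rose and 4 did not pass, with a median of -0.65, beside 27.0% of all features called lower and 29.6% called higher. The fibrillar collagen genes Col3a1, Col1a1 and Col1a2 had log2 fold changes of -2.17, -1.84 and -1.54, and Sparc, a collagen-binding protein, went from 130 and 132 to 82.4 and 81.2 FPKM (log2 fold change -0.67). Tgif1, a SMAD co-repressor, rose from 5.62 and 5.77 to 9.57 and 9.73 FPKM (log2 fold change 0.67; limma adjusted p = 9.54e-04). The collagen genes are also abundant in fibroblasts, and the median of the fibroblast markers was -1.10. The part of the latter in this result was not tested. The pathway lists share 4 genes, Ptpn14, Skil, Smad7 and Tgfb2, so their counts are not independent. Acta2 and Tagln, the 2 smooth muscle markers that fell, are also in the list of TGF-beta targets.

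Receptors that bind the thrombospondin and CCN proteins also fell: 10 of 11 tested fell and 0 rose (limma; 0 at an unadjusted p under 0.05 and 0 with limma-voom), with a median log2 fold change of -0.71, where 27.0% of all features were called lower. Itga5, an integrin subunit of the fibronectin receptor, went from 66.8 and 66.6 to 31.9 and 31.6 FPKM, and its partner Itgb1 from 86.1 and 87.6 to 64.4 and 62.3 FPKM, with log2 fold changes of -1.05 and -0.45. Lrp1, an endocytic receptor for both protein families, and Cd36, a thrombospondin receptor, fell by 0.78 and 1.02 on the log2(FPKM + 1) scale. The proteoglycan gene Sdc4 was at 145 and 142 against 147 and 135 FPKM (log2 fold change -0.02, 95% confidence interval -0.16 to 0.11; limma adjusted p = 0.725). After quantile normalization the log2 fold change of Sdc4 was 0.032, with a limma adjusted p of 0.630.

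Relatives of Thbs1, Cyr61 and Ctgf went both ways. Of 8 such genes 7 were tested, and 3 fell (42.9%), 2 rose and 2 did not pass. Over all features 27.0% were called lower and 29.6% higher. Wisp1, a CCN gene, went from 21.9 and 21.5 to 6.27 and 5.43 FPKM and Thbs2 from 7.08 and 6.92 to 2.71 and 2.81 FPKM, with log2 fold changes of -1.73 and -1.09. Thbs3 rose from 3.84 and 3.82 to 9.23 and 10.3 FPKM (log2 fold change 1.16; limma adjusted p = 6.67e-04), and Comp, a thrombospondin of cartilage, from 1.63 and 1.73 to 2.86 and 2.73 FPKM (log2 fold change 0.50; limma adjusted p = 0.0108). The call of Comp was lost without control replicate 1 or without either differentiation library (limma adjusted p = 0.0574, 0.0611 and 0.0515). The third that fell, Thbs4, was near 1 FPKM in control, with a log2 fold change of -0.44 (adjusted p = 0.0309 by limma). Its call was lost when any 1 library was left out (limma adjusted p from 0.0591 to 0.127) and with the replicate number as a block (limma adjusted p = 0.0616).

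In the endothelin axis the ligand changed more than its partners. Of 6 genes besides Edn1 3 were tested and 1 fell, a share near the 27.0% of all features called lower. This was Ece1, the enzyme that cleaves the endothelin precursor, which went from 12.7 and 13.7 to 7.36 and 6.36 FPKM (log2 fold change -0.85, SE 0.08, limma adjusted p = 2.15e-03). The receptor genes Ednra and Ednrb were at 2.16 and 2.01 against 1.43 and 1.54 FPKM and at 1.13 and 1.08 against 0.765 and 0.668 FPKM (limma adjusted p = 0.0501 and 0.0612), and both passed after median centring, after quantile normalization, without the intensity trend and with limma-voom. The limma-voom interval of Edn1, -3.13 to -2.46, lies below that of Ednra, -0.78 to -0.24, that of Ednrb, -1.09 to -0.23, and that of Ece1, -1.12 to -0.83. Edn2, Edn3 and Ece2 had means under 0.5 FPKM and were not tested.

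The protein-coding genes whose pattern was most like the mean of the 8, by Euclidean distance between centred log2(FPKM + 1) profiles over 4 libraries among 7804 genes of at least 5 FPKM, were Foxs1, Klf8, Atp10a, Usf1 and Morc1, at distances of 0.024 to 0.045. Foxs1, a forkhead transcription factor, was at 11.8 and 12.0 FPKM in control and 3.86 and 3.97 in differentiation. Among the 8 genes themselves the distance from their mean profile ran from 0.14 for Cyr61 to 0.87 for Edn1. On this scale Edn1, followed by Ankrd1 at 0.81, stood farthest from that mean. The pseudocount shrinks the change of Ankrd1. With limma-voom Ankrd1 was at -0.99, next to Lats2 at -1.03 and Ctgf at -1.06, and Tgfbi came after Edn1 at -2.37. With 4 libraries in 2 groups likeness by this distance reflects the size of the group difference and little else.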

How the data were processed

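RNA depleted of ribosomal RNA had been sequenced from 2 control and 2 differentiation libraries, per the labels' protocols. The deposited table holds FPKM that the authors made with HISAT2 and the GRCm38 build, per the submitters' processing notes. Annotation, counting tool and strand use are unknown here. The table also holds the authors' log2 fold change and p-value per feature, from a test that is not named.

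FPKM times merged exonic length (GENCODE M21, 31517 of 31600 features matched), divided by a scale fitted per library, gave fragment numbers. Of features with fewer than 300 fragments, 96.2% came out whole to within 0.05. The main test, two-sided, used limma 3.58.1 (R 4.3.3) with log2(FPKM + 1) as response, group as the only term, an intensity trend and 2 residual degrees of freedom. It covered 23138 features (mean FPKM 0.5 or more), and p-values were adjusted over all of them by the Benjamini-Hochberg method. Fold changes on this scale understate the change of low genes. The fit was tested on simulated data. Figures used Python 3.11.15 and matplotlib 3.10.9.

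The 8 genes and all lists were chosen with earlier results of these data known, so counts over a list are descriptions, and no list was tested as a set. Named genes are the 8 genes, up to 4 genes of each pathway list with the smallest p, up to 2 markers per list with the highest control level, the 5 genes most like the 8 in profile, features that overlap one of the 8, and counts of 5 or fewer in full. Others are marked as named after their values were seen. Rhox5 and Insl3 of the marker lists were not analysed here. The values of 1 gene of the TGF-beta target list are not reported here. Settings varied were pseudocount, filter, scaling, trend, a replicate block, omission of each library in turn, and limma-voom on recovered fragments.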

Additional observations from a re-analysis of the deposited data

How the results depend on the processing

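Under 13 alternative settings all 103 refitted log2 fold changes of the 8 genes were negative, and 100 kept their side of the threshold, the exceptions being the 3 of Ankrd1 given above. The number of the 8 genes that fell was 7 to 8 when 1 library was left out, and 7 of 7 tested with a filter of at least 2 FPKM. The replicate block lost none of the 8 (8 called, limma adjusted p of 0.0412 for Ankrd1). The deviations of libraries with the same number were not correlated across features (correlation -4.08e-04). With 2 libraries per group this value cannot show whether libraries of the same number share an origin, which is not stated. Over all features tested, 6246 were lower and 6848 higher. Under the block these counts were 5788 and 6510, and with 1 library left out they ran from 4474 to 4607 and from 5011 to 5683. The balance turned to more lower than higher after median centring (7266 and 6064), after quantile normalization (7601 and 5792) and with limma-voom (7251 and 7149). The endothelin list had 3 genes lower instead of 1 after median centring, after quantile normalization, without the trend and with limma-voom. Over all features, limma-voom called 31.4% lower. Without 1 library the list of CCN and thrombospondin relatives had 1 to 2 genes higher. Among genes that did not pass, Lats1 changed sign to -0.067 after median centring, -0.14 after quantile normalization and -0.018 with limma-voom, and it ran from -0.028 (without control replicate 1) to 0.044 when 1 library was left out, with -7.3e-04 without differentiation replicate 2. Amotl1 came to -1.5e-03 and Sdc4 to 0.032 after quantile normalization, and Sdc4 ran from -0.082 to 0.037 (without differentiation replicate 2) when 1 library was left out. The cause was not tested. Each group holds 2 libraries, and the values of Ankrd1 rest on 46 to 136 fragments. Intervals cover the spread between these libraries and nothing beyond it.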
